A study of Mus musculus with 10 samples.

Results

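The interferon regulatory factors are a family of DNA-binding proteins, and 8 of their genes were examined in the uterus of mice that carry the human estrogen biosynthetic enzyme HSD17B1: Irf1, Irf2, Irf3, Irf4, Irf5, Irf7, Irf8 and Irf9. They were taken by gene symbol from a table of 29268 genes. RNA of the uterus was sequenced from 5 HSD17B1TG and 5 wild-type (WT) females of the FVB/N strain, all 4 months of age, with 1 library per mouse. The transgene is a human HSD17B1 cDNA under a chicken beta actin promoter with a cytomegalovirus enhancer, which is active in all tissues. All TG mice were heterozygous and came from a single line with TG sires and WT dams. TG females have no estrous cycle, and the methods state, for uteri taken for histology, that the cycle stage of WT females was not controlled. If this holds for the sequenced uteri, effects of the transgene and of the cycle stage cannot be told apart. The mice are called TG1 to TG5 and WT1 to WT5 here, and the numbers do not pair them.

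Interferon regulatory factors share a DNA-binding domain that recognizes GAAA repeats in the promoters of interferons and of interferon-stimulated genes. IRF3 and IRF7 are latent in the cytoplasm and are phosphorylated by the kinases TBK1 and IKK-epsilon after nucleic acids are sensed, whereupon they switch on type I interferon genes. Interferon then acts through its receptor on STAT2, which joins IRF9 in the complex ISGF3, and Irf7 is itself a target of ISGF3. IRF1 and IRF2 bind the same element as an activator and, for the most part, a repressor. IRF4, IRF5 and IRF8 are best known from lymphocytes, dendritic cells and macrophages. In the rodent uterus, interferon epsilon is made by the epithelium under hormonal control.

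The stretch of up to 250 bases before the RefSeq transcription start is shown for the 2 members that rose, for Irf2, the only member whose promoter held an interferon-stimulated response element (ISRE) core, and for Ifit1, an ISGF3 target, as a comparison. Sequences are from RefSeq (GRCm38.p6), written along the strand of the gene, and capitals mark matches to 3 motifs searched on both strands: the ISRE core GAAANNGAA, the STAT element GAS TTCNNNGAA and the NF-kappaB element GGGNNTTTC. RefSeq and the Ensembl annotation of the table use different starts for some genes. Of the 250 bases, 57 lie inside the Ensembl span of Irf7 and are not shown, while 7 of Irf4, 13 of Irf2 and 18 of Ifit1 do so and are shown.
Irf7, chr7:141266482-141266674, minus strand: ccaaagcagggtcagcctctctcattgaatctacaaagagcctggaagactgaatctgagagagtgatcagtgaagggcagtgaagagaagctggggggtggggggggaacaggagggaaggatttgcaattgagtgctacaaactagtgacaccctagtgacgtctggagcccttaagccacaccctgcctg
Irf4, chr13:30748983-30749232, plus strand: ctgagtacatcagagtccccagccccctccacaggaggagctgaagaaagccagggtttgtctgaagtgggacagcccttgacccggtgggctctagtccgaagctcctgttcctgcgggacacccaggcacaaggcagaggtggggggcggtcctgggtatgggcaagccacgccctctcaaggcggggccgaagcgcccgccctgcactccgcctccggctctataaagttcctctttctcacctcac
Irf2, chr8:46739495-46739744, plus strand: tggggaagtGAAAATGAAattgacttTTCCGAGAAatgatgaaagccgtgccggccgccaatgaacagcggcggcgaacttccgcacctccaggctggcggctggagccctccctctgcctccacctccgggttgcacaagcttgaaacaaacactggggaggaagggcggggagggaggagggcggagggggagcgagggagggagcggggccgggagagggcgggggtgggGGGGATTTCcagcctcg
Ifit1, chr19:34640639-34640888, plus strand: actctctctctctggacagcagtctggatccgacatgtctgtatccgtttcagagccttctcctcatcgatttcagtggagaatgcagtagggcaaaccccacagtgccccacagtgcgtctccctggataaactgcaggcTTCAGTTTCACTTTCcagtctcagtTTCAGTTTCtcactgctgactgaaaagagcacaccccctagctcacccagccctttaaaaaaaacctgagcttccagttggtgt
The 250 bases of Irf7 and Irf4 held no match to any of the 3 motifs. Irf2 held 1 of each, with an ISRE core at -241, a GAS at -224 and an NF-kappaB element at -17 from the start. The 3 ISRE cores of Ifit1 began at -109, -103 and -84, and the first 2 overlap each other. Over the window of 250 bases before and 50 after the start, the ISRE core was present in 8.53% of all 32544 mouse promoters, the GAS in 8.33% and the NF-kappaB element in 4.35%. Irf1 held a GAS at -90 and Irf8 held GAS matches at -171 and -153, while Irf3, Irf5 and Irf9 held none of the 3 motifs. Both RefSeq windows of Irf9 lie inside its Ensembl span, so they do not cover the bases before the Ensembl start. A match is a description of the letters, and absence from this window says nothing of elements elsewhere.

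Irf7 and Irf4 were higher in all 5 HSD17B1TG uteri than in any WT uterus, on average 9.88-fold and 5.74-fold in FPKM, and both rose in the test. No member fell. The other 6 did not pass: Irf9, Irf2, Irf1, Irf5 and Irf3 had estimates above 0, and Irf8 had one below 0. A gene was called when edgeR's quasi-likelihood test gave a Benjamini-Hochberg adjusted p below 0.05 over the 16993 genes tested, the change was above 2-fold, and the mean level was above 1 FPKM in either group. All 8 members passed the filter on low counts. 2 of the 8 were called up, against 2.16% of all genes tested, and 0 were called down, against 2.08%. 2 of 8 had all TG mice above all WT mice, against 4.04% of genes, and 0 had all TG mice below, against 2.65%. The median log2 fold change was 0.58 over the members, with 7 of 8 above 0, and 0.00 over all genes, with 50.2% above 0. FPKM counts fragments per kilobase, scaled by depth. The length used is that of all annotated exons of a gene merged, which for Irf7 (3776 bases) fills its whole span. This length can exceed the main transcript by amounts that differ between genes, so levels of different genes compare only roughly.

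**Figure D1:**
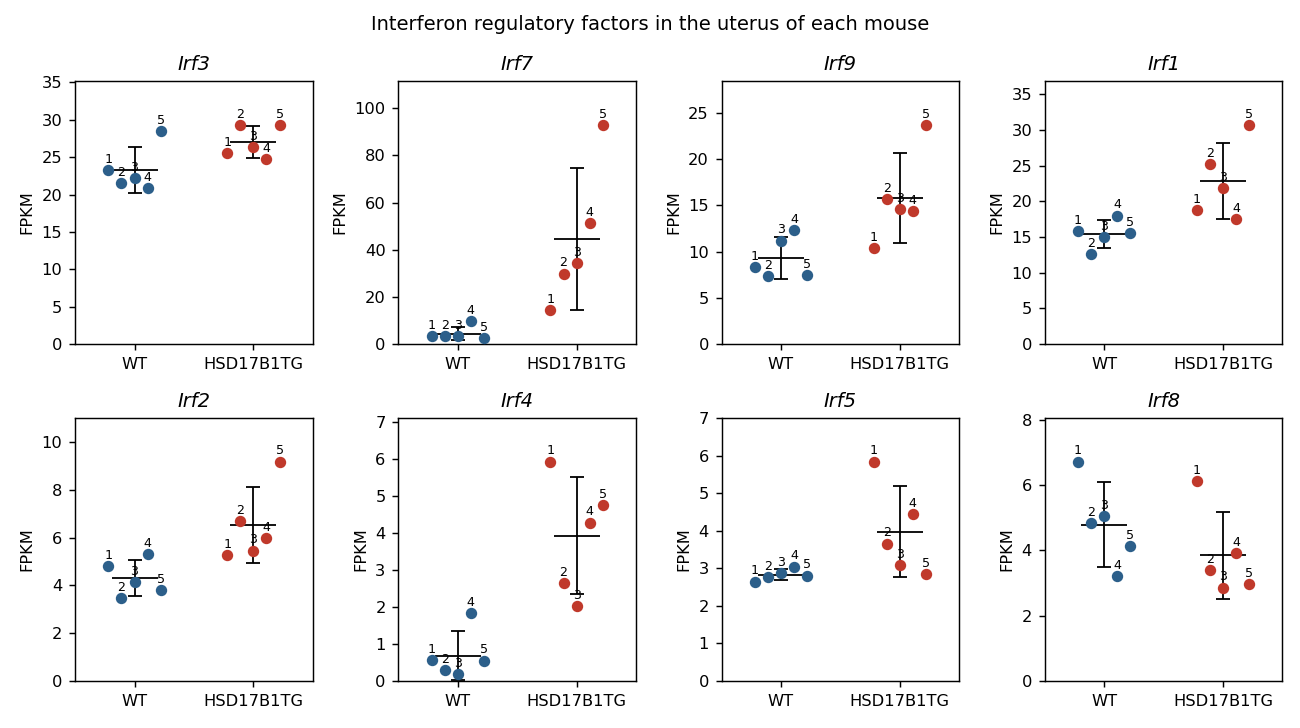
FPKM of the 8 genes in the uterus of each mouse (linear axes from 0, a separate scale for each gene). Points are single mice with their number, and the horizontal line and bar are the mean ± SD of 5 mice. The TG points lie above all WT points in Irf7 (14.6 or more against 9.64 or less) and Irf4 (2.03 or more against 1.84 or less), and the groups overlap in the other 6.

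Irf7, which amplifies the type I interferon response, had the largest estimate of the 8. Its gene lies on the minus strand at chr7:141262706-141266481 (GRCm38, ENSMUSG00000025498). It stood at 14.6, 29.9, 34.2, 51.3 and 92.9 FPKM in TG1 to TG5, and at 3.47, 3.35, 3.46, 9.64 and 2.62 FPKM in WT1 to WT5. The TG mice differed among themselves by 6.35-fold, but the lowest of them, TG1, was still above the highest WT mouse, WT4. The log2 fold change was 3.31 (SE 0.53, edgeR adjusted p = 0.0177), and the means were 44.6 FPKM in TG and 4.51 FPKM in WT (coefficient of variation 67.3% and 64.1%, n = 5 each). The counts behind these levels ran from 203 in WT5 to 5459 in TG5. Without WT2 the edgeR adjusted p was 0.0520 at a log2 fold change of 3.19, and without any other single mouse the call held. An end of the neighboring gene Phrf1 shares 1.19% of the exon bases of Irf7, and Phrf1 had a log2 fold change of 0.08 (edgeR adjusted p = 0.770).

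Irf3, the constitutively present partner of Irf7 in interferon induction, differed much less between groups. It stood at 25.5, 29.3, 26.3, 24.7 and 29.3 FPKM in TG1 to TG5, and at 23.3, 21.5, 22.2, 20.9 and 28.5 FPKM in WT1 to WT5. Only TG2 and TG5 were above every WT mouse. The log2 fold change was 0.21 (SE 0.12, edgeR adjusted p = 0.292), and with library-size normalization alone it was 0.03. The ratio of Irf7 to Irf3 (FPKM over FPKM within a mouse) was 0.574, 1.02, 1.30, 2.07 and 3.18 in TG1 to TG5. In WT1 to WT5 it was 0.149, 0.156, 0.156, 0.462 and 0.0921. In FPKM, Irf7 thus exceeded Irf3 in 4 of 5 TG mice and in none of the WT mice, which depends on the gene lengths used. Of the summed FPKM of the 8 genes, Irf7 took from 15.8% in TG1 to 47.3% in TG5, and in WT from 4.01% to 5.96% apart from WT4, which was above these.

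Irf9, the DNA-binding subunit of ISGF3, stood at 10.4, 15.7, 14.6, 14.4 and 23.7 FPKM in TG1 to TG5. In WT1 to WT5 it was 8.30, 7.35, 11.2, 12.3 and 7.46 FPKM. All TG mice but TG1 were above every WT mouse. The log2 fold change of 0.75 (SE 0.23) did not pass the test (edgeR adjusted p = 0.0715).

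Irf1 and Irf2, the activator and repressor pair, had estimates of like size. Irf1 stood at 18.8, 25.2, 21.8, 17.5 and 30.7 FPKM in TG1 to TG5, and at 15.8, 12.6, 15.0, 18.0 and 15.6 FPKM in WT1 to WT5. Irf2 stood at 5.25, 6.69, 5.45, 5.99 and 9.18 FPKM in TG1 to TG5, and at 4.79, 3.47, 4.13, 5.30 and 3.80 FPKM in WT1 to WT5. In each of them 4 TG mice were above every WT mouse, the exception being TG4 for Irf1 and TG1 for Irf2, and the WT mouse they fell below was WT4. The log2 fold changes were 0.56 (SE 0.17, edgeR adjusted p = 0.0665) for Irf1 and 0.60 (SE 0.18, edgeR adjusted p = 0.0714) for Irf2. Irf1, Irf2 and Irf9 had an adjusted p below 0.05 with DESeq2, at 0.0373, 0.0425 and 0.0359 respectively, but were below the 2-fold limit there too.

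Irf4, a factor of activated B cells, plasma cells and some dendritic cells, was the lowest of the 8 in WT. The gene lies on the plus strand at chr13:30749226-30766976 (GRCm38, ENSMUSG00000021356) and overlaps no other annotated gene. It stood at 5.94, 2.65, 2.03, 4.29 and 4.76 FPKM in TG1 to TG5, and at 0.564, 0.301, 0.177, 1.84 and 0.548 FPKM in WT1 to WT5. The groups were separated by the narrow gap between TG3 and WT4, and the other 4 WT mice were all below 1 FPKM. Counts ran from 14 to 186 in WT and from 187 to 543 in TG. The log2 fold change was 2.52 (SE 0.59, edgeR adjusted p = 0.0379). The call was lost in 7 of the 10 fits with 1 mouse left out, namely TG2, TG4, TG5, WT1, WT2, WT3 or WT5, with edgeR adjusted p from 0.0722 to 0.0910 and log2 fold changes of 2.25 or more. Without WT4 the estimate was 3.29 (edgeR adjusted p = 0.00418), more than 1.5 times the fold with all mice.

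Irf8, which directs macrophage and dendritic cell development and resembles Irf4 in its partners, had the only estimate below 0. It stood at 6.12, 3.39, 2.86, 3.91 and 2.96 FPKM in TG1 to TG5, and at 6.72, 4.84, 5.05, 3.21 and 4.12 FPKM in WT1 to WT5. The groups overlapped widely, with a log2 fold change of -0.32 (SE 0.25, edgeR adjusted p = 0.454). The ratio of Irf4 to Irf8 (FPKM over FPKM within a mouse) was 0.971, 0.782, 0.710, 1.10 and 1.61 in TG1 to TG5. In WT1 to WT5 it was 0.0839, 0.0621, 0.0350, 0.572 and 0.133, so the groups did not overlap. Irf5, which acts downstream of Toll-like receptors in macrophages, stood at 5.85, 3.66, 3.09, 4.44 and 2.85 FPKM in TG1 to TG5. WT1 to WT5 were close together at 2.65, 2.77, 2.88, 3.05 and 2.81 FPKM, and TG5 lay among them. Its log2 fold change was 0.49 (SE 0.22, edgeR adjusted p = 0.195), and 14.1% of its exon bases are shared with Tnpo3, whose log2 fold change was -0.00.

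**Figure D2:**
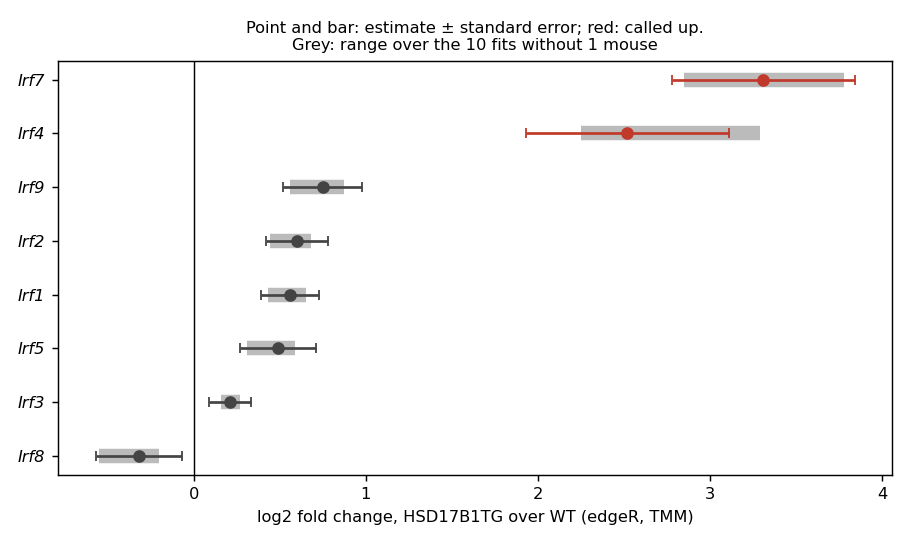
Log2 fold change of each gene, HSD17B1TG over WT. Points and bars are the edgeR estimate ± SE, red marks a gene called up, and the grey band is the range over the 10 fits with 1 mouse left out. Irf7 (3.31) and Irf4 (2.52) stand apart from the other 6, which lie between -0.32 and 0.75.

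The order of the levels in FPKM, which depends on the gene lengths used, differed between the groups. In WT the order of mean FPKM was Irf3 (23.3), Irf1 (15.4), Irf9 (9.33), Irf8 (4.79), Irf7 (4.51), Irf2 (4.30), Irf5 (2.83) and Irf4 (0.685). The ranges of neighbors overlapped only between Irf8 and Irf7 and between Irf7 and Irf2. In TG the order was Irf7 (44.6), Irf3 (27.0), Irf1 (22.8), Irf9 (15.8), Irf2 (6.51), Irf5 (3.98), Irf4 (3.93) and Irf8 (3.85). There, only Irf9 and Irf2 had ranges that did not overlap, and the last 3 were close to each other.

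Within the groups the mice did not rank alike in all members. TG5 was the highest mouse in Irf7, Irf9, Irf1 and Irf2, whereas TG1 was the lowest TG mouse in Irf7, Irf9 and Irf2 and the highest in Irf4, Irf5 and Irf8. WT4 was the highest WT mouse in Irf1, Irf2, Irf4, Irf5, Irf7 and Irf9, and the lowest in Irf3 and Irf8. As a description over 10 mice, the group means of log2 CPM (counts scaled to library sizes adjusted by TMM normalization) were removed. Pearson's r was then 0.86 between Irf7 and Irf9, 0.86 between Irf1 and Irf2, 0.79 between Irf2 and Irf7 and 0.61 between Irf5 and Irf8. It was -0.69 between Irf7 and Irf8 and 0.38 between Irf7 and Irf4, the 2 members that rose. The values share libraries and tissue composition.

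**Figure D3:**
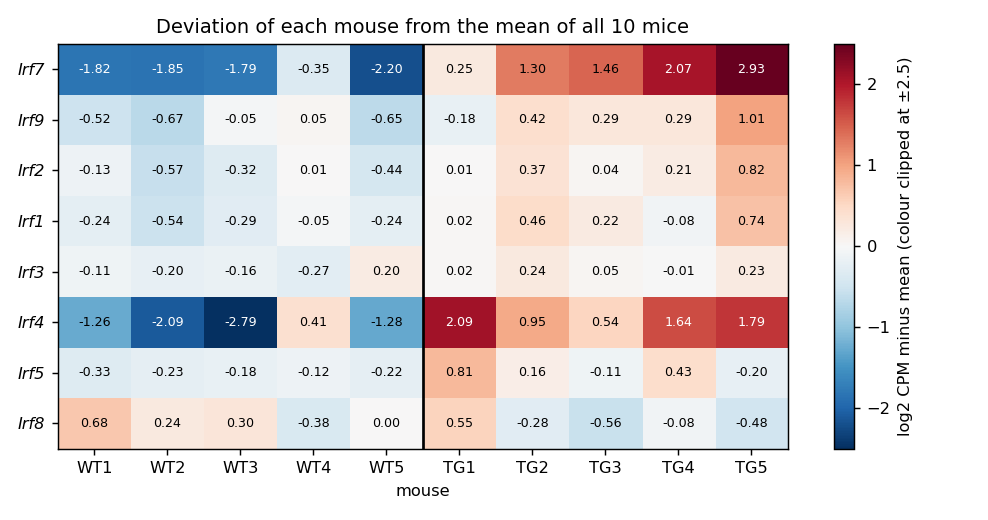
Log2 CPM of each gene in each mouse minus the mean of all 10 mice, WT to the left of the line and HSD17B1TG to the right (color clipped at 2.5 in either direction). Irf7 rises from -2.20 in WT5 to 2.93 in TG5, with WT4 (-0.35) and TG1 (0.25) nearest to each other. In Irf4 the highest mouse is TG1 (2.09) and WT4 is at 0.41.

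By the same measure over 14315 protein-coding genes, the genes most like Irf7 were Rtp4 (0.979), Rab32 (0.972) and Ifit1 (0.972), of which Rtp4 and Ifit1 are interferon-stimulated. Those most like Irf4 were Dstn (0.963), which encodes the actin-depolymerizing protein destrin, Pdlim7 (0.949) and Fam110c (0.937). Those most like Irf8 were Tnfaip8l2 (0.933), Pbld2 (0.920) and Lhfpl4 (0.913). Picked as the highest of so many genes, these values are descriptive.

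The genes around the factors were followed from ligand to target. Of 21 interferon ligand genes, 4 had a row in the table and only Ifne, interferon epsilon, was tested. Ifng, Ifnk and Ifnz had at most 15, 2 and 6 counts in any mouse, and the other 17 were not analysed here. Ifne stood at 8.16, 29.5, 16.6, 17.8 and 48.0 FPKM in TG1 to TG5, and at 2.63, 0.793, 0.187, 8.24 and 4.41 FPKM in WT1 to WT5. The groups overlapped by TG1 and WT4, and the log2 fold change of 2.88 (SE 0.80) did not pass (edgeR adjusted p = 0.0564), whereas DESeq2 called it up (adjusted p = 0.00213). Of 6 receptor genes, Ifngr2, a chain of the interferon gamma receptor, rose by a log2 fold change of 1.40 (SE 0.31, edgeR adjusted p = 0.0340), from 12.3 to 19.6 FPKM in WT to 20.1 to 72.7 FPKM in TG. The type I receptor genes Ifnar1 and Ifnar2 had log2 fold changes of -0.15 and -0.39 and did not pass. In all, 1 of 7 tested ligand and receptor genes was called up and 0 down, against 2.16% and 2.08% of all genes tested, with a median of 0.73, and 0 were called up without TG2, TG4, TG5, WT1, WT2, WT3 or WT5.

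Upstream of IRF3 and IRF7, 0 of 25 tested genes for nucleic acid sensing and IRF kinases were called, against 2.16% up and 2.08% down over all genes tested, with a median log2 fold change of 0.41. 2 had an edgeR adjusted p below 0.05 without reaching 2-fold, which is near the 6.16% of all genes. They were Ikbke, which encodes IKK-epsilon (0.86, adjusted p = 0.0180), and Unc93b1, the chaperone of endosomal Toll-like receptors (0.86, adjusted p = 0.0305). Tbk1, the other kinase, had a log2 fold change of 0.08 (edgeR adjusted p = 0.736). Among 14 genes for JAK-STAT signaling and its inhibitors, 0 were called, against the same shares of all genes, and the median was 0.08. Stat2, the partner of IRF9, had a log2 fold change of 0.95 (edgeR adjusted p = 0.0444), below 2-fold.

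Of 35 tested ISGF3 target genes, 7 were called up and 0 down, against 2.16% and 2.08% of all genes tested, with 33 of 35 estimates above 0 and a median log2 fold change of 1.31. The 7 were Ifi27l2a (2.21, edgeR adjusted p = 0.00956), Oas2 (3.21, edgeR adjusted p = 0.0384), Trim30a (1.86), Oasl2 (1.79), Phf11d (1.65), Parp14 (1.23) and Sp100 (1.06). Oas2, a sensor of double-stranded RNA, stood at 23.2 to 114 FPKM in TG and 1.49 to 20.1 FPKM in WT. Isg15, the ubiquitin-like modifier, had a log2 fold change of 1.68 and did not pass (edgeR adjusted p = 0.0718), and Rsad2, the antiviral enzyme viperin, had -1.05 (edgeR adjusted p = 0.125). The count moved with the mice and the tool. DESeq2 called 22 of them up, where it called 4.17% of 21712 genes up and 3.07% down. Without TG1 edgeR called 20 and without WT4 it called 24, whereas without TG2, TG4, TG5, WT1, WT2, WT3 or WT5 it called 1. Calls over all genes moved the same way, from 367 up with all mice to 763 without TG1, 888 without WT4 and between 38 and 100 without 1 of those 7 mice. The list was assembled with earlier results of these data known, so its direction is not independent evidence. An ISRE core lay in 18 of the 35 distinct promoter windows of the list (51.4%), against 8.53% of all windows. These windows are not the same set as the 35 tested genes. For the targets of IRF1 and interferon gamma described next it lay in 12 of 21 windows (57.1%).

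Of 27 tested targets of IRF1 and interferon gamma, 0 were called up and 1 down, against 2.16% and 2.08% of all genes tested, with a median of 0.49. A count of 1 of 27 is near that share. The 1 that fell was Il15, a cytokine that natural killer cells depend on, at 0.741 to 3.77 FPKM in TG and 4.82 to 20.3 FPKM in WT (log2 fold change -1.87, edgeR adjusted p = 0.0471). The count of genes called down was 1 without TG1 or WT4 and 0 without any other single mouse. Tap2, the peptide transporter, had 0.56 (edgeR adjusted p = 0.0493), below 2-fold. Among 13 tested partners and corepressors, 2 fell and 1 rose, against 2.08% and 2.16% of all genes tested, with a median of 0.01. Prdm1, the plasma cell repressor BLIMP1 that often accompanies Irf4, fell by 2.23 on the log2 scale (SE 0.39, edgeR adjusted p = 0.0211). It stood at 1.31, 1.31, 2.01, 3.62 and 2.17 FPKM in TG1 to TG5, and at 10.6, 11.6, 11.2, 3.25 and 11.8 FPKM in WT1 to WT5. Batf, which binds DNA jointly with IRF4 or IRF8, fell by 1.62 (SE 0.39, edgeR adjusted p = 0.0400), and every TG mouse was below every WT mouse. Batf2, a partner of IRF1, rose by 1.01 (SE 0.25, edgeR adjusted p = 0.0437). The count called down was 0 without TG2, TG5, WT2 or WT5 and 1 without TG4, WT1 or WT3, and the count called up was 1 without TG1, TG3 or WT4 and 0 without any other mouse. WT4 was within or nearest to the TG range in Irf7, Irf4, Ifne, Prdm1 and Oas2.

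**Figure D4:**
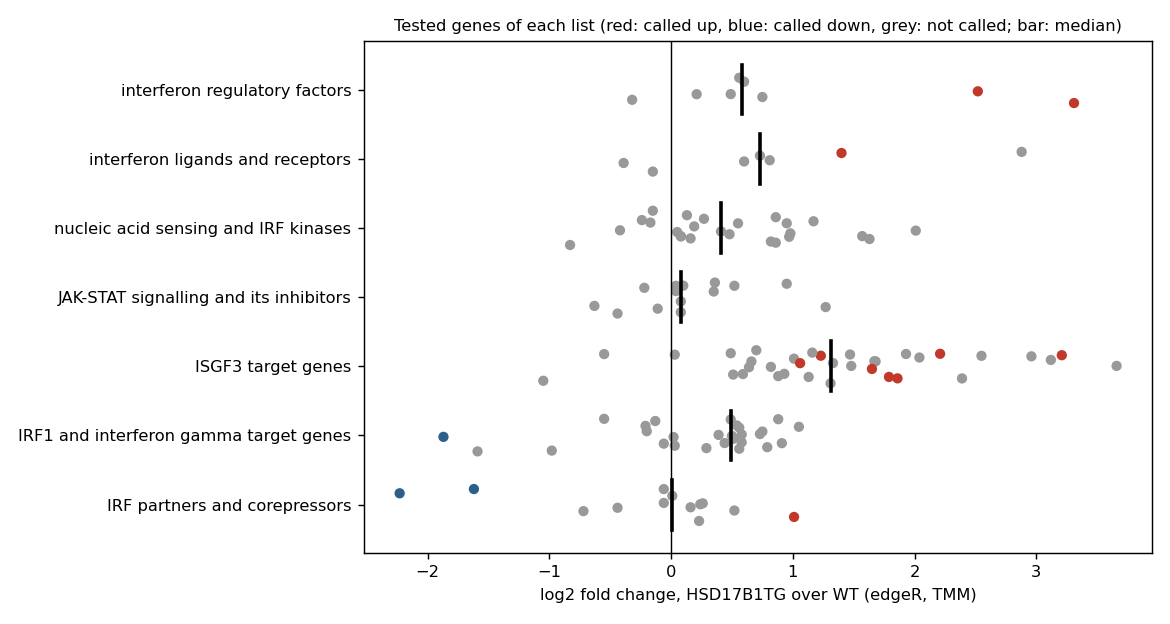
Log2 fold change (HSD17B1TG over WT, edgeR) of each tested gene in the 7 lists. Red and blue points are genes called up and down, grey points were not called, and the black bar is the median of the list, highest for ISGF3 targets (1.31) and lowest for partners and corepressors (0.01).

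Because the libraries are of unsorted uterine tissue, a change in the number of cells of a type and a change in RNA per cell cannot be told apart. Library totals ran from 14817228 to 23271988 counts. Marker genes in 13 lists, for cell types, all leucocytes and the oviduct, were summed in CPM for each mouse and compared by a two-sided exact permutation test, whose smallest possible p with 5 against 5 mice is 0.00794. B and plasma cell markers, a usual source of Irf4, summed to 22.1 to 56.0 in TG and 14.8 to 81.0 in WT (exact p = 0.667). Of the 13 genes in that list 7 were tested, with a median log2 fold change of -0.64. Of these 7, 0 were called, which is near the 2.16% up and 2.08% down of all genes tested. Pax5 had at most 3 counts in every mouse. Within groups, Irf4 had r = -0.84 with that sum, -0.64 with the sum over all leucocyte markers and 0.78 with smooth muscle markers. The smooth muscle sum was 2650.2 to 21993 in TG and 1403 to 16023 in WT (exact p = 0.341). TG5 had the lowest smooth muscle sum of the TG mice, at 2650.2, but more Irf4 (4.76 FPKM) than TG2, TG3 and TG4. The part of smooth muscle in the Irf4 difference was not tested.

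Irf7 had r = 0.85 within groups with the epithelial markers. Their sum was 1467 to 6682 in TG and 997 to 3748 in WT (exact p = 0.0635), and 4 of 5 TG mice were above every WT mouse and TG1 was not. The median log2 fold change of the 10 genes was 1.22. Of the 10, 0 were called, which is near the 2.16% up and 2.08% down of all genes tested. The part of the epithelial share in the Irf7 difference was not tested. The sum over all leucocyte markers was 240.5 to 323 in TG and 199.5 to 380.3 in WT (exact p = 0.794), with r = -0.02 to Irf7. Irf8 had r = 0.86 with macrophage and monocyte markers. It also had 0.73 with T cell, 0.69 with endothelial, 0.66 with dendritic cell, 0.64 with stromal and -0.69 with epithelial markers. Irf5 had r = 0.76 with macrophage and monocyte markers, and more with stromal markers (0.90), neutrophil markers without Ltf (0.83) and endothelial markers (0.78). The macrophage and monocyte sum was 282 to 594 in TG and 312 to 444 in WT (exact p = 0.532). Dendritic cell markers gave 99.0 to 172 in TG and 96.9 to 136 in WT (exact p = 0.325), and T cell markers 5.70 to 19.0 and 5.09 to 16.6 (exact p = 0.937).

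**Figure D5:**
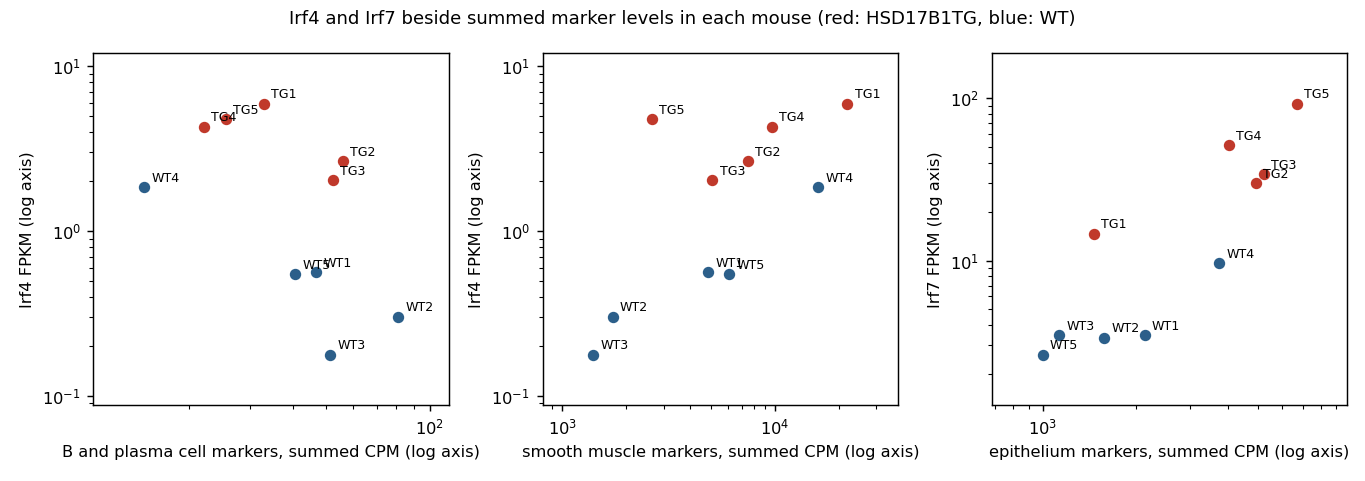
FPKM of Irf4 or Irf7 against the summed CPM of cell type markers in each mouse (all axes log scale, TG red, WT blue). Irf4 is highest in the mouse with most smooth muscle marker RNA of each group (TG1 and WT4). TG5, with the least smooth muscle marker RNA of the TG mice, has more Irf4 than TG2, TG3 and TG4. Irf7 is highest in the mouse with most epithelial marker RNA (TG5 and WT4), while WT4 has the least B and plasma cell marker RNA.

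Natural killer cell markers and neutrophil markers separated the groups. The natural killer cell sum was 4.14 to 18.1 in TG and 19.8 to 175 in WT, 6 of 9 genes were called down against 2.08% of all genes, and the exact p of 0.00794 became 0.0516 after adjustment over the 13 lists. The neutrophil sum was 3071 to 16056 in TG and 32.8 to 1389 in WT (exact p = 0.00794, adjusted 0.0516), but it was led by Ltf, a gene that uterine epithelium also expresses. Without Ltf, a step added after the values were seen, it was 6.24 to 25.8 in TG and 3.16 to 8.25 in WT (exact p = 0.0397). Eosinophil, stromal, endothelial and oviduct markers had exact p of 0.135, 0.143, 0.0952 and 0.563, with 4 of 8 stromal genes called down against 2.08% of all genes.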

How the data were processed

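Gene counts and FPKM values of uterus RNA from 10 mice were used as deposited. The authors mapped paired-end reads with HISAT2 2.0.5 to the mouse genome (Ensembl 94, GRCm38). The deposited counts are whole reads per gene, and the program and strand setting that made them are not given in the sources used here. The deposited FPKM values were computed by the authors and scale with DESeq2 size factors. Columns and files with the authors' fold changes, p-values and term enrichments were not used.

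Genes were filtered with filterByExpr, normalized by TMM and tested in edgeR 4.0.16 (R 4.3.3), with all 16993 genes in 1 fit of TG against WT. SE is the log2 fold change divided by the square root of F. The calls (adjusted p below 0.05, above 2-fold, mean above 1 FPKM in either group) use the thresholds of the study's methods. Totals of 14817228 to 23271988 counts per library put 3 counts at 0.202 CPM or less. Mice are the replicates and carry no shared number. The fits were also run on simulated data, and the outcome is not reported here. DESeq2 1.42.0, limma 3.58.1 and other normalizations, filters and left-out mice were alternatives.

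The genes named are all 8 members, members of the lists that were called or that carry a stated role, and the 3 genes most like Irf7, Irf4 and Irf8. Members and lists were chosen with earlier results of these data known. Exons come from GENCODE M21, where 28478 of 29268 genes have the coordinates of the table. Promoters are from RefSeq, in which all 8 members were found. Rtp4 and Oas2 had no promoter entry.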

Additional observations from a re-analysis of the deposited data

Results flagged for a closer look

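In WT, Irf7 in WT4 stood apart from the other mice of its group. It stood at 9.64 FPKM against 2.62 to 3.47 in the other 4. On the log2 CPM scale its gap to the nearest mouse was 0.781 of the range of the group, above the critical value of 0.71 for 5 mice, and on this scale it was the only such case among 16 groups (8 genes in 2 genotypes), where chance alone gives about 1 in 20. On the FPKM scale, a step added after the values were seen, the gap was 0.880 for Irf7, and Irf4 in WT4 also passed at 0.767.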

How the results depend on the processing

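Over 19 alternatives for each of the 8 genes, 152 of 152 estimates kept their direction and 144 kept their side of the thresholds. The 8 lost calls were Irf4 in 7 fits and Irf7 in 1 fit with a mouse left out, as given above, and the cause was not tested. Irf7 ranged from 2.85 (without TG5) to 3.78 (without WT4) and Irf4 from 2.25 to 3.29 with 1 mouse left out. Under other tools, normalizations and filters both kept their calls, at 2.92 to 3.31 and 1.56 to 2.79. Library-size normalization moved the median of all genes by -0.17.

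Counts of called genes moved as follows, the cause not tested. For ligands and receptors, 1 up became 2 with DESeq2, voom and both FPKM fits, and 0 to 2 with 1 mouse left out. For sensing and kinases, 0 up became 4 with DESeq2, 1 with voom and the FPKM fits and 2 by adjusted p alone, with 0 to 7 up and 0 to 1 down when 1 mouse was left out. For JAK-STAT genes, 0 up became 1 with DESeq2 and by adjusted p alone, and 0 to 2 with 1 mouse left out. For ISGF3 targets, 7 up became 22 with DESeq2, 12 with voom and with log2(FPKM + 1), 14 with log2(FPKM + 0.1), and 1 to 24 with 1 mouse left out. For IRF1 targets, 0 up became 1 with DESeq2 and by adjusted p alone and 0 to 2 with 1 mouse left out, and 1 down became 0 with voom and 0 to 1. For partners, 1 up became 0 with voom, both FPKM fits, upper quartile, library size and no filter, and 2 down became 1 with voom, with 0 to 1 up and 0 to 2 down when 1 mouse was left out. Members called up were 0 to 2. Over all genes, DESeq2 called 906 up and 666 down against 367 and 354, voom 391 and 189, library-size normalization 286 and 494, and without TG5 38 and 27. No paired analysis was possible because the labels carry no shared replicate numbers. The 6 members not called had SEs of 0.12 to 0.25 with 5 mice a group, and estimates below the 2-fold limit.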
